A study of Homo sapiens with 9 samples.

Results

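The genes examined were the protein subunits of the 5 oxidative phosphorylation complexes, in B-lymphoma cells made to express mutant BCL10. They were taken as every protein-coding row of the deposited table whose symbol is a NDUFA, NDUFB, NDUFC, NDUFS or NDUFV subunit of complex I, one of the 4 SDH genes of complex II, UQCR or CYC1 of complex III, COX4 to COX8 of complex IV, ATP5F, ATP5M or ATP5P of complex V, or one of the subunits encoded by the mitochondrial chromosome (the MT- genes). This gave 100 of the 60656 genes listed, of which 87 are encoded in the nucleus and 13 in the mitochondrion. By complex, 36 nuclear and 7 mitochondrial genes belong to complex I, 4 nuclear genes to complex II, 10 and 1 to complex III, 18 and 3 to complex IV, and 19 and 2 to complex V. NDUFA4 was counted with complex IV, in which it is found. NDUFAB1, ATP5IF1 and CYCS work with the same complexes but lie outside the symbols used, and are described with the supporting genes.

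RIVA, an established ABC-DLBCL line (diffuse large B-cell lymphoma of the activated B-cell type), carried a lentiviral construct switched on by doxycycline. The construct held truncated BCL10 (S136X), BCL10 with the missense change R58Q, or nothing (vector, which the labels call BCL10 wild type). All groups received doxycycline for 24 h, at 200 ng/mL in the treatment protocol, while another label field has 200 ng/µL. The study sequenced polyA-selected RNA from 3 replicates of each group. Endogenous BCL10 was still present in every group, and the sources used here do not say how many separate infections lie behind the replicates, so p-values measure only the spread between these libraries.

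Complexes I, III and IV pass electrons from NADH to oxygen and pump protons across the inner mitochondrial membrane, complex II feeds in electrons from succinate, and complex V uses the proton gradient to make ATP. Complex II is encoded in the nucleus alone, whereas the other complexes combine nuclear subunits, made in the cytosol and imported, with a small core of subunits made inside the mitochondrion from its own genome. Some diffuse large B-cell lymphomas are known for a high content of these complexes.

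Total counts were between 28047713 and 33122267 per library. The targeted gene matched its labels, since BCL10 had 885, 1268 and 936 counts in the vector libraries, 14293, 13210 and 9838 with S136X and 10596, 10131 and 10117 with R58Q (construct and endogenous transcript together). The 6 B-cell markers summed to between 2344 and 3062 CPM (counts per library size, adjusted by TMM factors and given in the unit CPM), and the activated B-cell marker IRF4 was above 689 CPM in every library. Within that sum, CD79B fell in S136X (log2 change -0.39, adjusted p = 0.0361, edgeR) and CD79A in R58Q (-0.35, 0.0467). No other B-cell marker of the sum passed against vector. The 4 T-cell markers stayed at or below 0.323 CPM and the 4 myeloid markers at or below 0.589 CPM. The 3 epithelial markers summed to between 36.4 and 59.4 CPM and the 3 stromal markers to between 20.9 and 30.0 CPM, with overlapping ranges in the groups. The epithelial sum was mostly EPCAM, at 32.8 to 53.5 CPM. The stromal sum holds opposite moves. COL1A1 was at 3.05 to 5.15 CPM in vector, 9.59 to 16.2 CPM in S136X and 10.7 to 17.2 CPM in R58Q (adjusted p = 0.00649 and 0.00263, edgeR). PECAM1 was at 17.2 to 19.2, 7.72 to 14.4 and 11.1 to 16.8 CPM in the same groups (adjusted p = 0.0442 and 0.0687, edgeR). With replicate numbers as a block, its adjusted p in R58Q was 0.0208 (edgeR). COL1A2 was at 2.29 to 4.95 CPM in vector, 1.37 to 3.62 CPM in S136X and 0.768 to 2.36 CPM in R58Q. It did not pass (adjusted p = 0.451 and 0.0928, edgeR) but was called lower with the block (0.0344 and 0.000980). The part of these markers in the results was not tested. The column names give all R58Q libraries a later date than the other 6, so the date and the R58Q construct cannot be told apart in any comparison with R58Q.

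Of the 100 subunits, 93 passed the filter on low counts in at least 1 comparison and 92 in all of them. The 7 that passed in none were COX4I2, COX6A2, COX6B2, COX7A1, COX7B2, COX8C and ATP5MGL, mostly forms known from lung, muscle, heart or testis. Among these, COX6A2 and COX7A1, the muscle forms, had 0 counts in all 9 libraries, and the others had at most 5 counts in any library. The read-through gene ATP5MF-PTCD1 had 6 to 16 counts and was not tested in R58Q against vector.

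The paralogous pairs were therefore one-sided in these cells. COX4I1 made up at least 99.9% of the COX4I1 and COX4I2 counts in every library, with 6710 to 7947 counts against 0 to 5. COX6B1 made up at least 99.9% of its pair with COX6B2, whereas COX6A1 was the only member of its pair with any count. The COX7A family was the exception, with COX7A2 at 54.2%, 53.0% and 52.7% of the family's counts in the vector libraries and COX7A2L holding the rest. In S136X the share of COX7A2 was 52.1%, 51.6% and 52.8%, and in R58Q it was 60.6%, 56.7% and 57.4%, above every vector and S136X library. COX7A2L is a factor in joining complexes III and IV into supercomplexes.

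Levels were compared between genes as CPM per kb of annotated exon. On that scale the 13 mitochondrial subunits had a median vector level of 5307 and all 87 nuclear subunits a median of 19.6, a ratio of 271. The mitochondrial levels ran from 625 for MT-ND6 to 13157 for MT-ATP8. The highest nuclear subunits were ATP5F1B, the catalytic beta subunit of complex V, at 280.1, NDUFS5 at 208 and COX6B1 at 169. The median vector level per kb over all members was 14.5 for nuclear complex I, 3.53 for complex II, 30.8 for complex III, 20.3 for complex IV and 23.8 for complex V. Without the members under 1 CPM per kb, among them the 6 untested forms of complex IV, it was 16.5 for complex I, 33.9 for complex IV and 24.5 for complex V, so the order of complexes III and IV rests on them. The low value of complex II came with long annotated exons only in part. SDHC had 41.3 CPM in vector over 14160 bases of exon, or 2.92 CPM per kb, and SDHA 8.68 CPM over 8383 bases, or 1.04. SDHD had 11.8 CPM over 2838 bases, or 4.15, and SDHB 56.7 CPM over 2462 bases, or 23.0.

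Among the nuclear subunits, the level went with the share of a gene's exon bases that another gene on the same strand also claims. The 65 tested genes with at most 10% of such bases had a median of 24.8 CPM per kb, and the 14 with 10 to 50% had a median of 3.002, a split chosen after the values were seen. NDUFA7 lay at 0.219 CPM per kb with 32.3% of its exon bases shared with AC010323.1, a gene with 0 to 3 counts itself, and NDUFA13 lay at 0.437 with 20.97% shared. The counting program and its handling of such reads are not given in the sources used here, so the low levels of these subunits are uncertain. ATP5F1B, NDUFS5, NDUFA7 and NDUFA13 are named for their levels after these were seen.

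**Figure D1:**
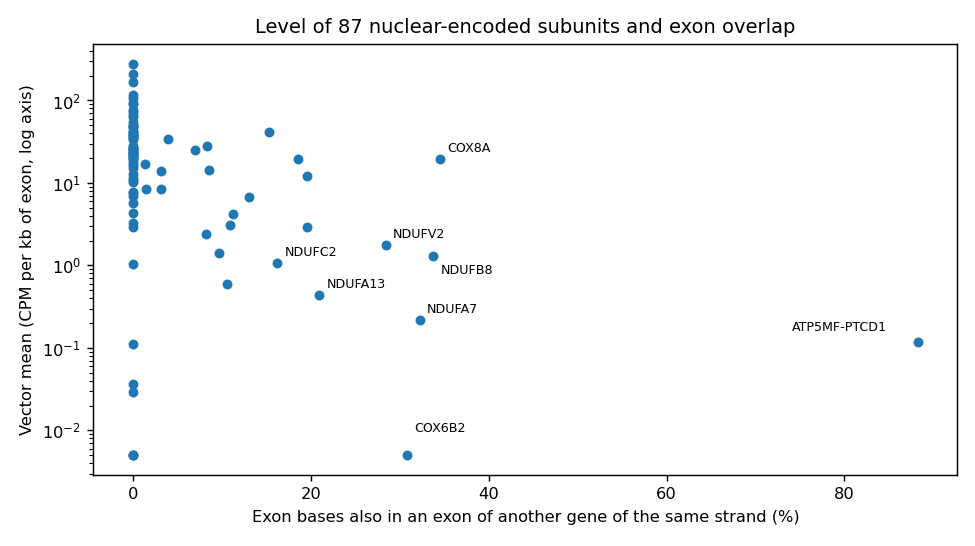
Vector mean level of the 87 nuclear-encoded subunits (CPM per kb of exon, log axis, 1 point per gene) against the percentage of exon bases also annotated in another gene of the same strand. Genes without overlap spread over the whole range, while NDUFA7, NDUFA13, NDUFC2 and NDUFB8, among others, combine overlap with levels under 2 CPM per kb. Genes at 0 are drawn at the bottom of the axis.

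The mitochondrial genes overlap each other as well. MT-ATP8 and MT-ATP6 share 46 bases, which are 22.2% of MT-ATP8 and 6.75% of MT-ATP6, and MT-ND4L and MT-ND4 share 7. The first stretch is shown because its reads belong to both genes. It is chrM:8527-8572 of GRCh38, plus strand, from the GENCODE transcripts, with the start codon of MT-ATP6 in capitals.
MT-ATP8/MT-ATP6 overlap: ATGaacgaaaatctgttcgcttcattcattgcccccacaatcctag
Nuclear copies of mitochondrial DNA hold parts of the same sequences, so counts of these genes also depend on how reads with several matches were placed. Of the 31-base words of MT-CO1, 66.7% were also in annotated transcripts of other genes, led by the pseudogene MTCO1P12, and the share was 63.7% for MT-ATP6, 56.9% for MT-ND2, 28.2% for MT-ND1 and 21.2% for MT-ND4. It was 5.0% for MT-CYB and 3.5% for MT-ND3.

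The mitochondrial subunits together took 4.78%, 6.74% and 6.31% of all counts in vector replicates 1 to 3, 5.47%, 5.34% and 5.07% in S136X and 4.22%, 3.88% and 4.68% in R58Q. Their summed level was 46959, 66249 and 60420.2 CPM in vector, 56421, 54373 and 49827 CPM in S136X, and 43897, 38872 and 47098 CPM in R58Q. Vector replicate 1 was thus as low as the R58Q libraries, and the groups overlapped. The 87 nuclear subunits together held a much smaller part of the library. Their sum was 7118, 6428 and 6492 CPM in vector, 7088, 7045 and 6975 CPM in S136X, and 8141, 7830 and 7297 CPM in R58Q, where every library exceeded every vector and S136X library. The ratio of mitochondrial to nuclear sum was 6.60, 10.3 and 9.31 in vector, 7.96, 7.72 and 7.14 in S136X and 5.39, 4.96 and 6.45 in R58Q. All 3 R58Q libraries had a lower ratio than all other libraries, vector replicate 1 being the nearest. In bulk RNA, fewer cells with a transcript and less of it per cell cannot be told apart.

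**Figure D2:**
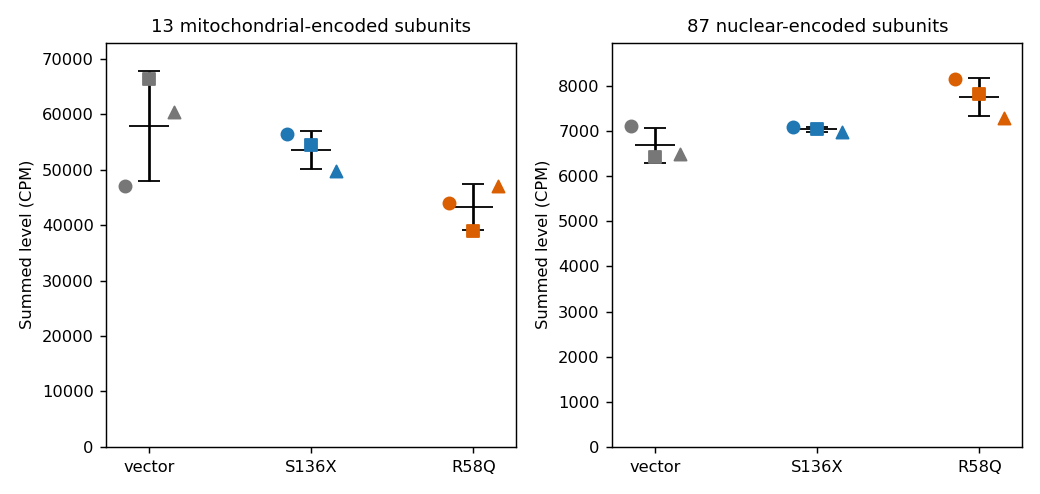
Summed level in CPM of the mitochondrial-encoded (left) and nuclear-encoded (right) subunits in each library, with the group mean and SD (n = 3). Circles, squares and triangles are replicates 1, 2 and 3. The R58Q libraries lie between 7297 and 8141 CPM on the right, above all others, and between 38872 and 47098 CPM on the left, where vector replicate 1 falls among them.

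R58Q was compared with vector to see which subunits followed the missense mutant. Some nuclear-encoded subunits of each of the 5 complexes were called higher in R58Q, by modest amounts. MT-ND1, MT-ND2, MT-ND4 and MT-CO1 fell and MT-ND6 rose. At an adjusted p under 0.05 (edgeR quasi-likelihood test, Benjamini-Hochberg over all 15435 genes tested), 28 of 92 subunits rose and 5 fell, beside 12.3% of all genes tested that rose and 8.76% that fell. Among genes with a mean of 10 CPM or more, the background was 17.7% and 10.1%. Of the 79 nuclear subunits tested, 27 rose and 1 fell, with a median log2 fold change of 0.22. Of the 13 mitochondrial subunits, 1 rose and 4 fell, with a median of -0.42, and the median of all genes was -0.03. The sign of the fitted change was positive for 74 of the 79 nuclear subunits and negative for 12 of the 13 mitochondrial ones, beside 46.5% positive and 53.5% negative among all genes. The changes were small, and 2 of the rises (NDUFB7 and MT-ND6) and 1 of the falls (MT-ND2) reached 1.5-fold, beside 4.09% and 3.54% of all genes. At an unadjusted p under 0.05, 41 subunits were higher and 11 lower, beside 18.7% and 17.5%, and DESeq2 called 31 higher and 11 lower, beside 14.3% and 9.62%.

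These counts depend on the scaling and on single libraries. With upper-quartile normalization 17 rose and 8 fell, and with total counts only 21 rose and 8 fell. When replicate numbers entered as a block, 44 rose and 11 fell, beside 35.2% of all genes called in either direction. The numbers of higher and lower subunits were 32 and 10 without vector replicate 1, 7 and 0 without vector replicate 2, 12 and 1 without vector replicate 3, 18 and 2 without R58Q replicate 1, 21 and 0 without R58Q replicate 2, and 24 and 0 without R58Q replicate 3. Under these fits the nuclear median stayed between 0.15 and 0.26 and the mitochondrial median between -0.53 and -0.30. For the other scalings and the fits without 1 library, the share of all genes called is not given. Their counts therefore cannot be set against a background, and a lower count there is not a result about the subunits.

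**Figure D3:**
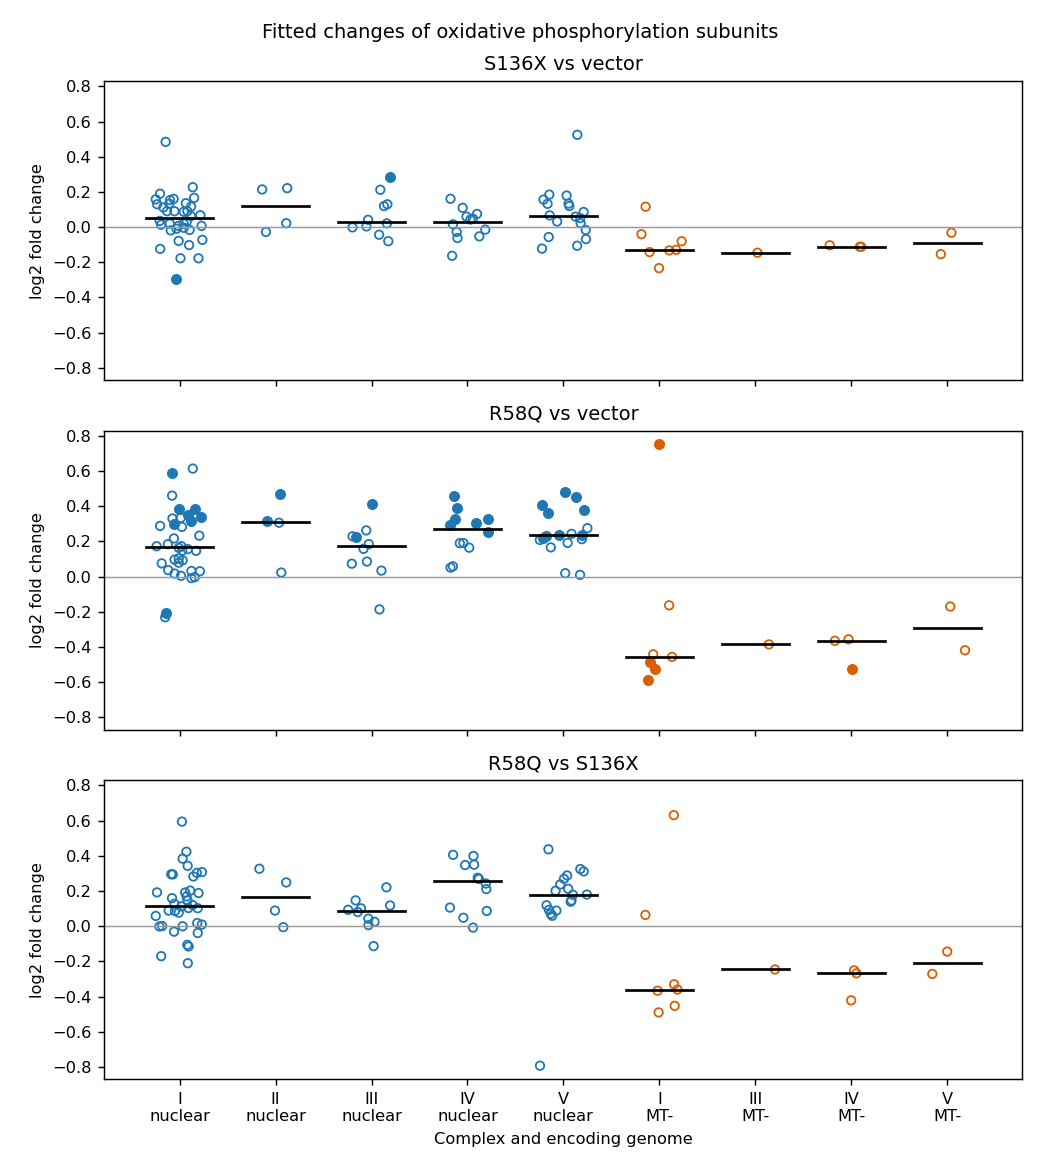
Fitted log2 fold change of each tested subunit (1 point per gene) by complex and encoding genome, for S136X against vector, R58Q against vector and R58Q against S136X. Filled points passed an adjusted p under 0.05 (edgeR) and bars are medians. In the middle panel the nuclear medians lie between 0.17 and 0.31 and the mitochondrial medians between -0.46 and -0.29, with MT-ND6 alone above 0 among the MT- genes.

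Among the mitochondrial subunits of complex I, which form its membrane arm, MT-ND1 was at 4042, 5594 and 4766 CPM in vector replicates 1 to 3, 5032, 4663 and 4311 CPM in S136X and 3519, 2998 and 3514 CPM in R58Q. Every R58Q library was below every vector library. The change was -0.52 ± 0.13 (log2, SE, adjusted p = 0.0237, edgeR). MT-ND2 was at 3432, 4529 and 3536 CPM in vector, 4087, 3210.3 and 3122 CPM in S136X and 2836, 2139 and 2682 CPM in R58Q. It too was lower in all R58Q libraries, by -0.59 ± 0.14 (adjusted p = 0.0218, edgeR). MT-ND4 was at 5782, 8387 and 7770.0 CPM in vector, 6856, 7008 and 6197 CPM in S136X and 5011, 4902 and 5806 CPM in R58Q. Its groups met at vector replicate 1 and R58Q replicate 3, with a fitted change of -0.48 ± 0.14 (adjusted p = 0.0462, edgeR). In complex IV, MT-CO1, the catalytic subunit, was at 6316, 9322 and 9256 CPM in vector, 7479, 7951 and 7605 CPM in S136X and 5400.2, 5396 and 6505 CPM in R58Q. Here as well R58Q replicate 3 lay above vector replicate 1, and the change was -0.53 ± 0.16 (adjusted p = 0.0483, edgeR).

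MT-ND6 went the other way. It is the only subunit encoded on the opposite strand of the mitochondrial genome, and its mRNA is known for lacking a stable polyA tail. Its level was 295, 385 and 304 CPM in vector, 468, 314 and 285 CPM in S136X and 716, 393 and 554 CPM in R58Q. All R58Q libraries were above the vector libraries, R58Q replicate 2 only just, and the change was 0.75 ± 0.20 (adjusted p = 0.0315, edgeR). Whether reads were counted by strand is not given in the sources used here, and without strand, reads from MT-ND6 and from transcripts antisense to it cannot be told apart.

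The calls of these 5 genes were lost in several of the fits that left out 1 library. Without vector replicate 2 none of them passed, with adjusted p (edgeR) of 0.0899 for MT-ND1, 0.0831 for MT-ND2, 0.172 for MT-ND4, 0.173 for MT-CO1 and 0.0549 for MT-ND6. Without R58Q replicate 3 they were also lost (0.0586, 0.0561, 0.0689, 0.0669 and 0.0797). The log2 changes, in the same order, were -0.39, -0.45, -0.37, -0.43 and 0.89 without vector replicate 2. Without R58Q replicate 3 they were -0.56, -0.62, -0.56, -0.62 and 0.76, no smaller in size than with all libraries. MT-ND1 was further lost without vector replicate 3 or R58Q replicate 2, MT-ND2 without R58Q replicate 2, and MT-ND6 without vector replicate 1 or 3. MT-ND4 and MT-CO1 kept their call only without vector replicate 1. The direction of all 5 was the same in each of the 18 alternatives. Those at 1.5-fold and at an adjusted p under 0.01 reuse the main fit, so their direction is fixed.

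The remaining mitochondrial subunits had negative changes that did not pass. MT-ND4L was at 1895 ± 331 CPM (SD, n = 3) in vector and 1397 ± 191 CPM in R58Q (log2 change -0.44, adjusted p = 0.0611, edgeR), and MT-ND5 at 4946 ± 1061 and 3610.3 ± 413 CPM (-0.46, 0.0787). MT-CYB, the mitochondrial subunit of complex III, was at 5615 ± 1086 and 4306 ± 464 CPM (-0.38, 0.102). In complex IV, MT-CO2 was at 6048 ± 913 and 4703 ± 549 CPM (-0.36, 0.0867) and MT-CO3 at 6837 ± 1064 and 5349 ± 462 CPM (-0.36, 0.0808). MT-ATP6, the proton channel subunit of complex V, was at 4444 ± 799 and 3329.9 ± 415 CPM (-0.42, 0.0745). The vector libraries spread more widely than the R58Q libraries in each of these genes. With the replicate block all 6 of these genes passed, as did the 4 called without it (10 lower of 13). The smallest changes were those of MT-ATP8 (-0.17, adjusted p = 0.346, edgeR) and MT-ND3 (-0.16, 0.307), which did not pass with the block either (0.252 and 0.227).

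The mitochondrial ribosomal RNAs, transcribed from the same strand as the 12 other subunits, did not pass in R58Q. MT-RNR2 had 336621, 463070 and 412275 counts in vector and 422327, 322653 and 448789 in R58Q, with a log2 change of 0.09 (adjusted p = 0.704, edgeR). MT-RNR1 changed by 0.07 (adjusted p = 0.850, edgeR). The groups overlapped in both genes, and after polyA selection these counts are not a measure of ribosomal RNA in the cell.

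**Figure D4:**
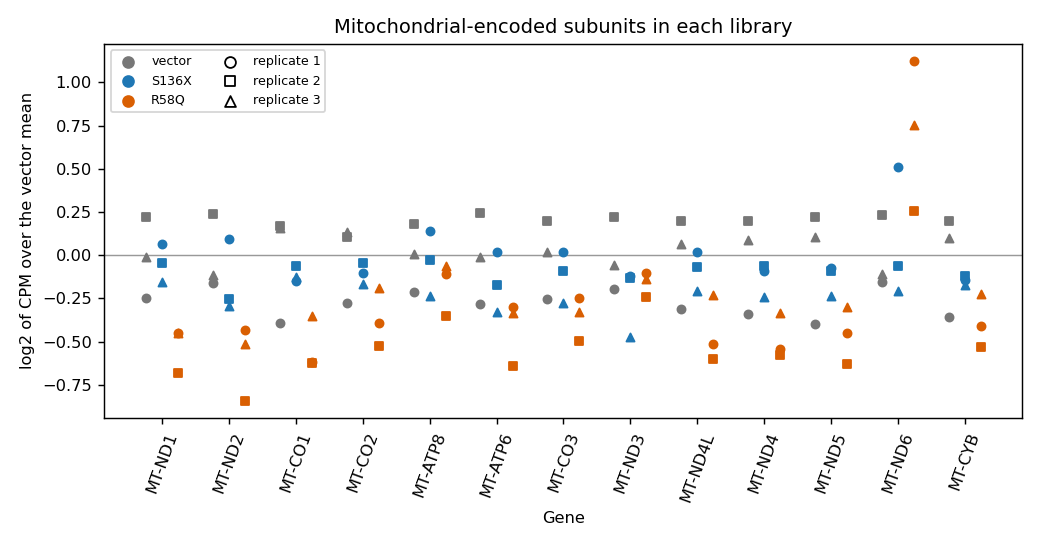
Level of the 13 mitochondrial-encoded subunits in each library, as log2 of CPM over the vector mean (0 is the vector mean), with groups by colour and replicates 1, 2 and 3 as circles, squares and triangles. For 12 genes all R58Q points lie below 0, and vector replicate 1 is the lowest vector point of each gene. MT-ND6 is the gene in which all R58Q points lie above 0.

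Of the 36 nuclear subunits of complex I, 7 rose in R58Q and 1 fell, with a median log2 change of 0.17. Among all genes with a mean of 10 CPM or more, 17.7% rose and 10.1% fell. The share of rises in complex I was near that background. The largest rise was in NDUFB7, a supernumerary subunit at the intermembrane face, which was at 39.1, 38.1 and 43.4 CPM in vector, 42.7, 48.4 and 43.4 CPM in S136X and 57.8, 66.9 and 56.8 CPM in R58Q. The R58Q libraries stood clear of both other groups, and the change was 0.59 ± 0.08 (adjusted p = 0.00295, edgeR), past the test in every alternative. NDUFS7, which carries the last iron-sulfur cluster before ubiquinone, was at 62.1, 53.2 and 59.2 CPM in vector and 76.9, 81.0 and 70.5 CPM in R58Q (0.39 ± 0.08, adjusted p = 0.0125, edgeR). NDUFA2, a supernumerary subunit, was at 32.4, 32.8 and 32.9 CPM in vector and 43.2, 44.7 and 40.3 CPM in R58Q (0.38 ± 0.06, adjusted p = 0.00564, edgeR). The other rises were in NDUFA1, NDUFS3, NDUFB11 and NDUFB2. Of the 7 nuclear core subunits, which bind the cofactors, 2 rose with a median of 0.18, and of the 29 supernumerary ones 5 rose and 1 fell with a median of 0.16.

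NDUFB10 was the 1 nuclear subunit that fell, and it is named for that after its values were seen. It was at 102, 99.9 and 98.5 CPM in vector, 97.5, 97.4 and 105 CPM in S136X and 87.9, 86.3 and 86.4 CPM in R58Q. The groups did not overlap, and the change was -0.21 ± 0.05 (adjusted p = 0.0244, edgeR).

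In complex II, SDHD and SDHB rose. SDHD, a membrane anchor, was at 11.5, 10.96 and 12.9 CPM in vector, 13.9, 13.8 and 13.3 CPM in S136X and 15.6, 16.6 and 16.8 CPM in R58Q (0.47 ± 0.10 against vector, adjusted p = 0.0130, edgeR). SDHB, the iron-sulfur subunit, was at 62.9, 53.5 and 53.7 CPM in vector, 70.6, 63.2 and 64.5 CPM in S136X and 75.0, 70.6 and 66.5 CPM in R58Q (0.32 ± 0.08, adjusted p = 0.0285, edgeR). All R58Q libraries were above all vector libraries for both genes. SDHB lost its call without vector replicate 2 or 3 or R58Q replicate 1 or 2 (adjusted p = 0.117, 0.0960, 0.0649 and 0.0613, edgeR). SDHA, the flavoprotein that oxidises succinate, was at 8.81, 8.73 and 8.50 CPM in vector and 11.2, 11.5 and 9.60 CPM in R58Q (0.31 ± 0.11, adjusted p = 0.0818, edgeR), and passed with the replicate block (adjusted p = 0.0393). SDHC, the second anchor, was at 44.6, 38.9 and 40.3 CPM in vector and 42.7, 42.6 and 40.7 CPM in R58Q, with a change of 0.02 and a 95% interval from -0.17 to 0.22.

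In complex III, 2 of 10 nuclear subunits rose, with a median of 0.17. This share was also near the 17.7% that rose among all genes with a mean of 10 CPM or more. UQCRFS1, the Rieske iron-sulfur protein, was at 87.4, 78.8 and 73.5 CPM in vector, 101.1, 95.5 and 95.7 CPM in S136X and 118, 103 and 97.8 CPM in R58Q. Both mutants lay above vector in every library, and it was the 1 subunit called in both comparisons with vector, which share the vector libraries. Its change was 0.41 ± 0.09 in R58Q (adjusted p = 0.0161, edgeR). UQCRC2, a core protein, was at 138, 131 and 132 CPM in vector and 156, 159.6 and 154 CPM in R58Q (0.23 ± 0.05, adjusted p = 0.0196, edgeR). Without vector replicate 2 the adjusted p was 0.0703 for UQCRFS1 and 0.0925 for UQCRC2, and without vector replicate 3 it was 0.0593 and 0.0718 (edgeR). UQCRC2 was also lost without R58Q replicate 3 (adjusted p = 0.0510, edgeR).

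Complex IV had 7 of 12 tested nuclear subunits higher in R58Q and 0 lower at an adjusted p under 0.05 (edgeR), with a median change of 0.27. The shares of all genes were 12.3% higher and 8.76% lower, or 17.7% and 10.1% with a mean of 10 CPM or more. At an unadjusted p under 0.05, 9 were higher and 0 lower, and DESeq2 called 7 and 0. COX7A2 was at 68.1, 66.1 and 64.1 CPM in vector, 66.8, 69.6 and 68.01 CPM in S136X and 97.6, 91.1 and 83.7 CPM in R58Q. The S136X libraries lay with vector and the R58Q libraries above both (0.46 ± 0.07, adjusted p = 0.00376, edgeR). COX6B1, which sits where the copies of the complex IV dimer meet, was at 163, 158 and 153 CPM in vector, 154, 162 and 155 CPM in S136X and 222, 209.7 and 192 CPM in R58Q. It showed the same order of groups (0.39 ± 0.07, adjusted p = 0.00641, edgeR). COX7B was at 63.9, 66.7 and 60.5 CPM in vector and 86.8, 77.2 and 76.5 CPM in R58Q (0.33 ± 0.07, adjusted p = 0.0147, edgeR). The other rises were in COX5A, COX5B, COX7C and NDUFA4.

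Members of the paralog families of complex IV did not all move. COX4I1, the common form of regulatory subunit 4, was at 234, 223 and 234 CPM in vector and 242, 246 and 232 CPM in R58Q, a change of 0.06 with an interval from -0.10 to 0.21. COX6A1 was at 9.16 ± 1.14 CPM in vector and 9.51 ± 0.96 CPM in R58Q (log2 change 0.05, adjusted p = 0.814, edgeR), and COX8A at 9.91 ± 0.57 and 11.3 ± 1.7 CPM (0.19, 0.323). COX7A2L was at 57.5, 58.8 and 57.5 CPM in vector and 63.3, 69.5 and 62.1 CPM in R58Q. Its groups did not overlap, but the change of 0.16 did not pass without the replicate block (adjusted p = 0.0953, edgeR) and passed with it (0.0448).

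Complex V had 9 of 17 tested nuclear subunits higher and 0 lower at an adjusted p under 0.05 (edgeR), with a median change of 0.23. The shares of all genes are those given for complex IV. At an unadjusted p under 0.05, 11 were higher and 0 lower, and DESeq2 called 11 and 0. ATP5F1D, the delta subunit of the rotating stalk, was at 59.8, 46.6 and 54.0 CPM in vector, 56.8, 62.0 and 63.6 CPM in S136X and 75.3, 81.2 and 67.6 CPM in R58Q (0.48 ± 0.10, adjusted p = 0.0147, edgeR). ATP5MD, a small membrane subunit that helps the complex form dimers, was at 37.5, 37.6 and 38.5 CPM in vector, 42.0, 41.0 and 41.6 CPM in S136X and 54.9, 50.8 and 49.9 CPM in R58Q. Its 3 groups did not overlap, with S136X between the others (0.45 ± 0.06 for R58Q, adjusted p = 0.00249, edgeR). The 5 subunits of the F1 part, which makes ATP, had a median of 0.24 with 3 higher, and the 4 of the peripheral stalk a median of 0.20 with 1 higher.

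The membrane ring of complex V is built from 1 protein made by 3 genes. ATP5MC1 was at 70.6, 61.5 and 60.4 CPM in vector, 74.5, 70.6 and 65.9 CPM in S136X and 92.5, 84.4 and 79.0 CPM in R58Q (0.41 ± 0.08, adjusted p = 0.0128, edgeR). ATP5MC3 was at 122, 108 and 111 CPM in vector, 119, 127 and 125 CPM in S136X and 148, 155 and 137 CPM in R58Q (0.36 ± 0.07, adjusted p = 0.0112, edgeR). ATP5MC2 was at 106, 94.2 and 97.0 CPM in vector and 111, 132 and 96.6 CPM in R58Q, and its change of 0.19 ± 0.11 did not pass (adjusted p = 0.242, edgeR). The first 2 genes were higher in every R58Q library, while R58Q replicate 3 lay within the vector range for ATP5MC2. Without vector replicate 2 the adjusted p was 0.0638 for ATP5MC1, 0.0607 for ATP5MC3, 0.0549 for ATP5F1D, 0.0548 for NDUFS7 and 0.0588 for SDHD (edgeR). Without vector replicate 3 it was 0.0511 for ATP5MC1 and 0.0577 for COX7B (edgeR).

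**Figure D5:**
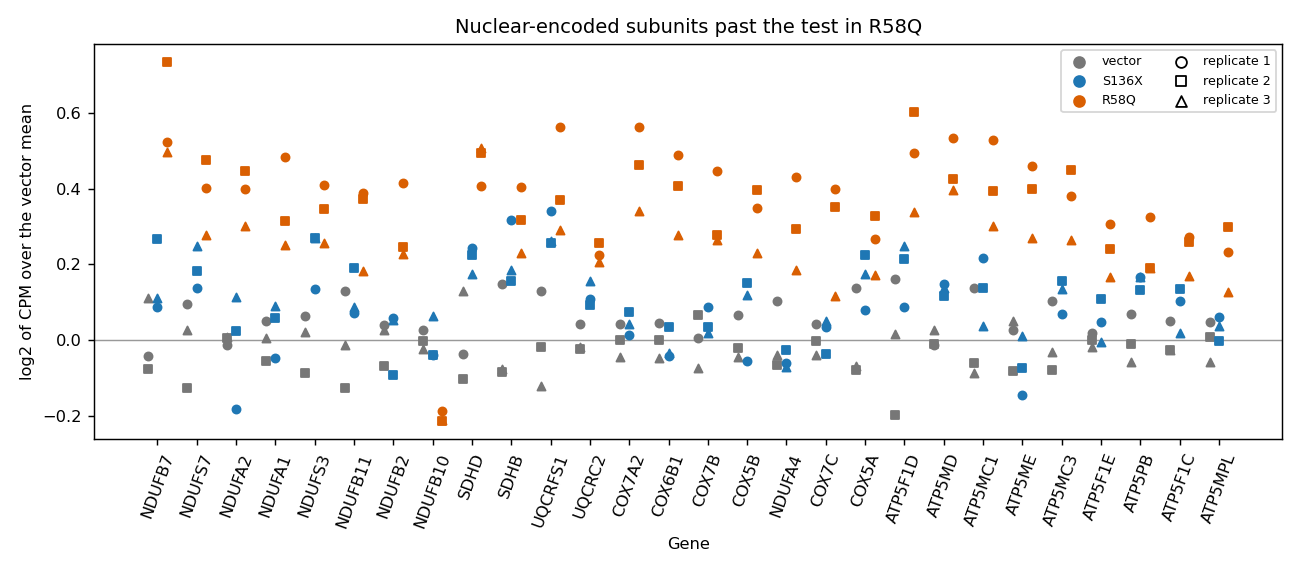
The 28 nuclear-encoded subunits that passed the test in R58Q against vector, by complex, as log2 of CPM over the vector mean in each library (0 is the vector mean). Groups are shown by colour and replicates 1, 2 and 3 by circles, squares and triangles. The genes were drawn because they passed, so the separation of R58Q from vector is a description, and NDUFB10 is the 1 gene with R58Q below 0.

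Summed over each complex, the nuclear subunits separated R58Q from vector by different margins. For complex IV the vector libraries were at 1082, 1089.9 and 1158 CPM, in order of size, the S136X libraries at 1126, 1127 and 1169.8 CPM and the R58Q libraries at 1241, 1347 and 1386 CPM. For complex V they were at 2715, 2791 and 3057 CPM in vector, 3025, 3038 and 3058 CPM in S136X and 3200.3, 3433 and 3525 CPM in R58Q. R58Q lay above both other groups in complexes IV and V. For complex I the sums were 1624, 1647 and 1772 CPM in vector, 1747, 1761 and 1770.4 CPM in S136X and 1779, 1906 and 1957 CPM in R58Q, where the gap to vector was narrow. For complex II they were 112, 115 and 127.8 CPM in vector and 133.6, 141 and 145 CPM in R58Q. S136X, at 127.2, 128.95 and 134.5 CPM, overlapped both. For complex III the groups overlapped, with 857, 888 and 1004 CPM in vector and 943, 1002 and 1128 CPM in R58Q. S136X was at 934, 937 and 1022 CPM. No test of the difference between complexes was made.

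Upstream sequences are shown for 4 of the genes above that rose together in R58Q, because subunit promoters are known to share sites for ETS factors and NRF1. The 4 were picked without a fixed rule and do not stand for the genes that rose. COX7A2, which rose more than COX6B1, has no ETS letters in its window. RefSeq start sites (GRCh38.p14) were matched for 68 of the 87 nuclear subunits, as windows of 300 bases around the start. The ETS letters CCGGAAG, searched on both strands (CTTCCGG on the other), were in 20 of 68 windows (29.4%), against 10.7% of all 27305 promoters in the table and 14.2% of those of the 15842 protein-coding genes. The 250 bases before the start follow, 5′ to 3′ on the gene's strand, with the ETS letters in capitals.
NDUFB7, chr19:14572067-14572316, minus strand: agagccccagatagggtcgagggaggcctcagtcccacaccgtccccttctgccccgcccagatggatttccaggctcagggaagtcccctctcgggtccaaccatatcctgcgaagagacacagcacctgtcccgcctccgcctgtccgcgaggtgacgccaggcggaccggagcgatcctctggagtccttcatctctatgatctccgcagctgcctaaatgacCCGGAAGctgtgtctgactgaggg
ATP5MD, chr10:103396476-103396725, minus strand: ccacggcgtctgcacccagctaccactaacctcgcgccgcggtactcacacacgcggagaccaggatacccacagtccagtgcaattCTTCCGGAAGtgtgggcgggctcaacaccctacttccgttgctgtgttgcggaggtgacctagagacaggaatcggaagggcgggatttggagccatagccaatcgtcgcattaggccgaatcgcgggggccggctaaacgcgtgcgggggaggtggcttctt
COX6B1, chr19:35648073-35648322, plus strand: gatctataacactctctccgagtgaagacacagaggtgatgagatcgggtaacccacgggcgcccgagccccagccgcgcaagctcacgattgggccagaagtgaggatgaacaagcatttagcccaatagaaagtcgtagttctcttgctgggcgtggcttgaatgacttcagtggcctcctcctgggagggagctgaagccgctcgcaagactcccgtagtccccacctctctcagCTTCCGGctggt
UQCRFS1, chr19:29213152-29213401, minus strand: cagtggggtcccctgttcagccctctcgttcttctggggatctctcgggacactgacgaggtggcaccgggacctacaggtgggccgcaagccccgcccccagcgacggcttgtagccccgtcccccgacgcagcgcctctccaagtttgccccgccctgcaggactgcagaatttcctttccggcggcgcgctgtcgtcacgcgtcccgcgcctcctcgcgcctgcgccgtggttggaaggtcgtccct
The match begins 24 bases before the start in NDUFB7 and 12 bases before it in COX6B1. ATP5MD holds matches on both strands that overlap, beginning 163 and 160 bases before the start, and 1 more that runs across the start and is left in lower case. UQCRFS1 holds none of these letters.

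The ETS letters were in 9 of the 24 windows of subunits that rose in R58Q and in 11 of the 39 windows of subunits that were tested and not called. The letters TGCGCA, the core of the NRF1 site, were also in 20 of 68 windows (29.4%), against 8.42% of all promoters and 10.8% of those of protein-coding genes. They were in 7 of the 24 windows of subunits that rose and 12 of the 39 not called. The E-box CACGTG was in 7 of 68 (10.3%, against 7.43% and 8.88%). TGCGCA and CACGTG read the same on both strands. A match is a description of the letters and not of binding.

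S136X was compared with vector in the same way, with the same vector libraries. Of 93 tested, 1 rose and 1 fell at an adjusted p under 0.05 (edgeR, over all 15530 genes tested), beside 6.03% of all genes that rose and 4.10% that fell, so these counts lie below the background. At an unadjusted p under 0.05, 6 were higher and 1 lower, beside 26.7% of all genes in either direction, and DESeq2 called 1 and 1, beside 9.38% and 6.36%. UQCRFS1 rose by 0.29 ± 0.07 (adjusted p = 0.0419, edgeR). NDUFB1, a small supernumerary subunit of complex I, fell. It was at 23.6, 25.5 and 24.1 CPM in vector, 20.5, 19.1 and 19.98 CPM in S136X and 26.1, 25.1 and 22.3 CPM in R58Q. The S136X libraries were below all others, with a change of -0.30 ± 0.08 (adjusted p = 0.0459, edgeR). Both calls sat near the threshold. NDUFB1 was lost without any 1 of the 6 libraries (adjusted p from 0.0657 to 0.187) and UQCRFS1 without any but vector replicate 1 (0.0664 to 0.155). The counts were 4 higher and 3 lower without vector replicate 1 and 0 and 0 without any other library (edgeR). The shares of all genes called in these fits are not given.

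The nuclear subunits had a median log2 change of 0.05 in S136X and the mitochondrial subunits a median of -0.11, beside -0.02 for all genes. With total counts only, the nuclear median was -0.01. The mitochondrial median was -0.21 without vector replicate 1 and -0.00 without vector replicate 2. With the replicate block, 7 subunits rose and 1 fell, beside 12.9% and 11.8% of all genes. Among these were SDHB (0.22, adjusted p = 0.0126, edgeR) and NDUFS7 (0.19, 0.0480), which did not pass without it (0.128 and 0.139). By complex the nuclear medians were 0.05 for complex I, 0.12 for complex II, 0.03 for complexes III and IV and 0.06 for complex V. All 7 nuclear core subunits of complex I had a positive fitted change, with a median of 0.09, beside 7276 of all 15530 genes tested. Without the block, 0 of the 7 passed (edgeR and DESeq2), and 3 had an unadjusted p under 0.05. With the block, 3 of the 7 were called higher (edgeR).

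Of the mitochondrial subunits, 0 passed in S136X with edgeR or DESeq2, and 0 had an unadjusted p under 0.05. Their changes ran from -0.23 for MT-ND3 (797 ± 119 CPM in vector, 678 ± 90 CPM in S136X, adjusted p = 0.277, edgeR) to 0.12 for MT-ND6 (328 ± 50 and 356 ± 99 CPM, adjusted p = 0.728). For MT-ND1 the change was -0.04 with an interval from -0.38 to 0.30, and for MT-CO1 it was -0.11 with an interval from -0.51 to 0.29. Without vector replicate 1, MT-CO1, MT-CYB and MT-ND5 passed.

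R58Q was compared with S136X directly to test whether the mutants differed. Of the 93 subunits tested, 0 passed in either direction (edgeR, adjusted p under 0.05), beside 0.349% of all genes that were higher in R58Q and 0.184% that were lower. At an unadjusted p under 0.05, 29 subunits were higher in R58Q and 13 lower, beside 5.69% and 5.29% of all genes, and DESeq2 called 7 higher and 6 lower, beside 1.47% and 0.712%. With the replicate block, 34 were higher and 12 lower, beside 7.84% and 6.71%. The nuclear median was 0.13 and the mitochondrial median -0.27 (all genes 0.00).

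Of the subunits given with values above, the following 6 had the smallest adjusted p in edgeR. COX6B1 was 0.40 ± 0.07 higher in R58Q than in S136X (adjusted p = 0.0540 without and 5.5e-06 with the block, edgeR), COX7A2 0.41 ± 0.07 (0.0560 and 1.5e-05), NDUFB7 0.42 ± 0.09 (0.0993 and 5.4e-06) and ATP5MD 0.31 ± 0.06 (0.0892 and 0.000296). MT-ND1 differed by -0.49 ± 0.09 (0.0667 and 2.4e-06) and MT-CO1 by -0.42 ± 0.09 (0.106 and 1.5e-05). In all 6 genes the R58Q and S136X libraries did not overlap. Over all subunits, 34 were higher without overlap and 11 lower, beside 9.46% and 7.56% of all genes tested. MT-ND3 differed by 0.06, with an interval from -0.20 to 0.33, and SDHC by -0.01, with an interval from -0.16 to 0.15. The block leaves 2 residual degrees of freedom.

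The 3 partners outside the symbols used moved in both directions in R58Q. CYCS, the cytochrome c that carries electrons from complex III to IV, was at 161, 152 and 148 CPM in vector, 192, 181 and 169.95 CPM in S136X and 223, 195 and 197 CPM in R58Q. It rose in R58Q by 0.41 ± 0.07 (adjusted p = 0.00583, edgeR), and its change of 0.24 in S136X did not pass without the block (adjusted p = 0.0558, edgeR) and passed with it (0.00495). NDUFAB1, the acyl carrier protein of complex I, rose by 0.31 in R58Q (adjusted p = 0.0454, edgeR). ATP5IF1, which inhibits complex V when it runs backwards, fell by 0.27 in R58Q (adjusted p = 0.0196, edgeR), from 135, 120.0 and 128 CPM in vector to 108, 108 and 103 CPM.

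Among 57 assembly factors, 11 rose and 0 fell in R58Q and 3 rose and 0 fell in S136X (edgeR). Of all genes, 12.3% rose in R58Q and 6.03% in S136X, so the share in S136X was not above the background in this fit. The share in R58Q was near the 17.7% that rose among all genes with a mean of 10 CPM or more. At an unadjusted p under 0.05, 0 had a lower level in R58Q and 1 in S136X, and DESeq2 called 0 lower in either. With the replicate block, 10 rose in S136X and 14 in R58Q, and 0 fell in either. The block shares of all genes were 12.9% higher and 11.8% lower in S136X, and 35.2% in either direction in R58Q. By complex, those higher in R58Q were 4 of 18 for complex I, 1 of 4 for complex II, 0 of 6 for complex III (1 at an unadjusted p under 0.05 and 0 with DESeq2), 5 of 25 for complex IV and 1 of 4 for complex V. Copper delivery to complex IV was represented by SCO2, at 6.999, 5.56 and 6.79 CPM in vector, 9.63, 10.4 and 9.85 CPM in S136X and 10.9, 11.95 and 9.69 CPM in R58Q. It rose in both mutants (0.63 and 0.75, adjusted p = 0.0185 and 0.00796, edgeR). COX17, the copper chaperone, was at 31.2, 31.5 and 29.6 CPM in vector, 36.6, 39.7 and 38.8 CPM in S136X and 52.3, 50.8 and 44.4 CPM in R58Q (0.32 and 0.67, adjusted p = 0.0235 and 0.00113, edgeR). For complex I, ECSIT and NDUFAF4 rose in R58Q by 0.46 and 0.42.

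Genes that copy, transcribe and process the mitochondrial genome rose in part. Of 30 such genes, 7 rose in S136X and 13 in R58Q, beside the 6.03% and 12.3% of all genes, and the medians were 0.18 and 0.23. The calls had 0 lower in either (edgeR, with 1 at an unadjusted p under 0.05 and 0 with DESeq2 in each). With the replicate block, 14 rose and 1 fell in S136X, and 18 rose and 1 fell in R58Q, beside the block shares given for the assembly factors. PNPT1, the mitochondrial polynucleotide phosphorylase that degrades RNA, was at 76.2, 78.8 and 78.7 CPM in vector, 109, 139 and 111 CPM in S136X and 117, 149 and 131 CPM in R58Q (0.62 and 0.76, adjusted p = 0.00558 and 0.00111, edgeR). ELAC2, which cuts the 3′ ends of mitochondrial tRNAs, was at 153, 145 and 149 CPM in vector, 209, 193 and 214 CPM in S136X and 203, 186 and 199 CPM in R58Q (0.46 and 0.39, adjusted p = 0.00365 and 0.00350, edgeR). SLIRP, which stabilises mitochondrial mRNAs with LRPPRC, rose in R58Q by 0.44 (adjusted p = 0.0119, edgeR), and TWNK, the helicase of mitochondrial DNA, rose in S136X by 0.32 (adjusted p = 0.0216, edgeR).

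Of 77 tested proteins of the mitochondrial ribosome, which makes the MT- subunits, 14 rose in S136X and 34 in R58Q, with 0 lower in either at adjusted or unadjusted p under 0.05 (edgeR) or with DESeq2. The shares of all genes that rose were 6.03% and 12.3%. With the replicate block, 28 rose in S136X and 43 in R58Q, and 0 fell in either, beside the block shares given for the assembly factors. The medians of the list were 0.15 and 0.24. MRPS11 was at 45.1, 42.3 and 43.8 CPM in vector, 51.1, 57.5 and 54.8 CPM in S136X and 78.0, 70.3 and 91.3 CPM in R58Q (0.87 in R58Q, adjusted p = 0.000906, edgeR). MRPL39 was at 39.6, 33.8 and 33.1 CPM in vector, 51.9, 48.2 and 47.4 CPM in S136X and 64.7, 53.0 and 55.9 CPM in R58Q, and rose in both (0.47 and 0.70, adjusted p = 0.0121 and 0.00267, edgeR). Every mutant library was above every vector library for both genes.

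Of 17 genes of the tricarboxylic acid cycle and pyruvate entry, 1 rose in S136X and 2 in R58Q, near the 6.03% and 12.3% of all genes that rose. In either, 0 fell (edgeR, with 0 at an unadjusted p under 0.05 and 0 with DESeq2). With the replicate block, 4 rose in S136X and 6 in R58Q, and 0 fell, beside the block shares given for the assembly factors. IDH3A, the catalytic subunit of the NAD-linked isocitrate dehydrogenase, was at 71.3, 71.8 and 73.1 CPM in vector, 106, 106 and 106 CPM in S136X and 100.8, 103 and 109.6 CPM in R58Q. Its rise of 0.56 and 0.53 (adjusted p = 0.000662 and 0.000784, edgeR) lay beside list medians of 0.11 and 0.09. Of 12 tested regulators of mitochondrial content, 1 rose in S136X, and 3 rose and 1 fell in R58Q, counts too small to set against the same shares. PPRC1, a coactivator of the PGC-1 family, rose in S136X by 0.30 (adjusted p = 0.0174, edgeR), and ESRRA and NFE2L2 rose in R58Q by 0.30 and 0.27 (adjusted p = 0.0345 and 0.0223, edgeR). SP1, a general transcription factor, fell in R58Q by 0.21 (adjusted p = 0.0495, edgeR).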

How the data were processed

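RNA-seq of RIVA cells was analysed for 9 libraries, in groups taken from the labels. The authors deposited 1 table of read counts per gene, used here, and beside them a normalized signal per library, which was not used. The submitters' processing notes name cutadapt, STAR, Picard and hg38, and the counting program, annotation and strand setting are not given in the sources used here. PolyA selection and single-end reads are stated in the study's methods.

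In R 4.3.3 with edgeR 4.0.16, each pair of groups was fitted on its own 6 libraries (filterByExpr, minimum count 10 and total 15, TMM factors, quasi-likelihood F test, Benjamini-Hochberg over all genes tested). Genes were called at an adjusted p under 0.05 with any fold. A standard error is the log2 fold change over the root of F. Intervals are 95% and use the residual degrees of freedom of the 6 libraries, without the moderation used in the test. They are wider than the test implies and can include 0 where its unadjusted p is under 0.05. Between replicates, the chi-square of the counts over its degrees of freedom was 7.21 to 23.0, above the 1 of pure sampling, and every library counted as a sample of its own.

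The labels number the replicates 1 to 3. Deviations from group means correlated at 0.206 to 0.788 in all 9 pairs with the same number and at a median of -0.310 in the 18 with different numbers. Calls come from fits without a term for the number. Values from the blocked fit are given for part of the results whose call differs in it, and not for every gene.

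Genes named with values were the MT- genes, the SDH genes, the paralog families, up to 3 per nuclear complex and comparison with the largest called change without overlap between groups, and up to 3 per list of supporting genes that passed; others are named where they complete a count or are said to be chosen later. The members, lists and tests were chosen with earlier results of these data known. Exon lengths, overlaps and 31-base words came from GENCODE 29, promoters from RefSeq. Alternatives were DESeq2 1.42.0, limma-voom (limma 3.58.1), other scalings, filters and thresholds, the 9 libraries in one fit, the replicate block, and each library left out. The procedures were checked on simulated counts.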

Additional observations from a re-analysis of the deposited data

How the results depend on the processing

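Numbers of calls depended on the settings, and so did the sign of some changes that were not called. Some alternatives, the 1.5-fold threshold and an adjusted p under 0.01, reuse the main fit and so keep its signs. Each comparison has 630 values of 35 named subunits under all alternatives. Of these, 583 in S136X against vector, 511 in R58Q against vector and 568 in R58Q against S136X kept both their sign and their side of the threshold, 19, 71 and 0 lost the call, and 6, 34 and 53 gained it. The sign turned in 22, 14 and 9 values, from 13, 4 and 4 subunits, and 0 of these were called. Among them were MT-ND1, MT-ND6 and COX6B1 in S136X, COX6A1, COX4I1, SDHC and NDUFB1 in R58Q, and MT-ND3 and SDHC between the mutants. The nuclear median in S136X also turned its sign, to -0.01, with total counts only. In S136X against vector, 0 subunits were higher with upper-quartile normalization, total counts only, all 9 libraries in one fit, the 1.5-fold threshold or an adjusted p under 0.01, and 0 were lower with no filter, 1.5-fold or 0.01. Leaving out 1 library gave 0 to 4 higher and 0 to 3 lower. In R58Q against vector, upper-quartile normalization gave 17 higher and 8 lower, total counts 8 lower, DESeq2 11 lower, no filter 10 lower, 1.5-fold 2 and 1, and an adjusted p under 0.01 gave 6 and 0. Leaving out 1 library gave 7 to 32 higher and 0 to 10 lower. In R58Q against S136X, DESeq2 gave 7 higher and 6 lower, total counts 2 and 1, no filter 6 and 4, and all 9 libraries in one fit 7 higher. Leaving out 1 library gave 0 and 0. With the replicate block, 7 were higher and 1 lower in S136X, 44 and 11 in R58Q, and 34 and 12 between the mutants. The block calls included all 2 and 33 calls made against vector without it. The cause of these differences was not tested. Shares of all genes called are not given for the other scalings, the other filters, the 9 libraries in one fit and the fits without 1 library. The upper-quartile and total-count scalings moved the median of all genes in R58Q to -0.09. Limits are the spread of the vector libraries, the shared date of the R58Q libraries, reads shared with pseudogenes and overlapping genes, and 3 libraries per group.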
